A study of Homo sapiens with 6 samples.

Results

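The histone genes were taken from total RNA sequencing of HCT116, an established human colorectal carcinoma cell line. A gene was a member if its symbol named a replication-dependent histone (HIST1, HIST2, HIST3 or HIST4 followed by H), an H2AF or H3F3 variant, H1F0 or H1FX, whatever its level. By this rule 85 of 19871 gene symbols were members, with 124 of 92866 listed transcripts. Of the 85 genes, 71 were replication-dependent (6 H1, 17 H2A, 18 H2B, 15 H3 and 15 H4 genes) and 14 were variant or replacement histone genes.

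The study compared 3 groups of HCT116 cells with 2 libraries each. The GAS5 group received a plasmid for the long noncoding RNA GAS5, the siYAP group received siRNA against the transcriptional co-activator YAP, and NC was the negative control. Neither the labels nor the methods say what the NC cells were given, whether an empty plasmid was used, or whether the libraries of a group came from separate cultures. All 3 groups share the same line, and the comparisons of GAS5 with NC and of siYAP with NC share the same NC libraries. The files give 1 value per transcript and group, the authors' mean over the libraries of that group. No spread between libraries could be had, so no test of a difference was made and every interval below covers counting error only.

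Mean totals were 27206123, 25521577 and 26298036 counts across NC, GAS5 and siYAP. YAP1 itself had 3480 counts for NC, 2679 for GAS5 and 1444 for siYAP, with log2 fold changes of -0.26 and -1.18 against NC. GAS5 RNA was not analysed here. Of 7 colorectal epithelial markers, EPCAM, CDH1, KRT8, KRT18 and KRT19 were well detected, whereas VIL1 and CDX1 were listed at 0 in NC. The summed FPKM (fragments per kilobase of transcript, scaled to library depth) of 3 leukocyte markers was 0.035, 0.04 and 0.055 across NC, GAS5 and siYAP. The sum over 3 endothelial markers ranged from 0.165 to 0.225, and over 3 fibroblast markers from 2.31 in NC to 3.40 in GAS5, nearly all of it COL1A1.

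Histones package DNA: the core histones H2A, H2B, H3 and H4 form the nucleosome, and the linker histone H1 binds where DNA enters and leaves it. Replication-dependent histone genes lie in clusters, mostly lack introns, and are expressed in S phase, when new DNA must be packaged. Their mRNAs end in a short conserved stem-loop in place of a poly(A) tail, so a library primed on poly(A) misses them, while random priming, as used for these libraries, does not. Variant histones are made throughout the cell cycle from ordinary, mostly polyadenylated mRNAs and replace the canonical forms at particular sites. In bulk RNA, fewer cells in S phase and less histone mRNA per cell cannot be told apart.

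The 3′ stem-loop is the sequence that sets these mRNAs apart, so its forms are shown first. It was searched as 16 bases, a stem of 6 pairs around a loop of 4, beginning with GG and ending with CC, after the stop codon of the listed transcripts in GENCODE 29 (GRCh38). Of the 71 replication-dependent genes, 36 had a model reaching at least 16 bases past the stop codon, and 32 of these held the element, at 23 to 68 bases after the stop codon. In the other 4, HIST1H1E, HIST1H1T, HIST1H2BJ and HIST1H4C, no match was found, which says only that this pattern is not in the annotated stretch. The models of the remaining 35 genes end fewer than 16 bases past the stop codon and show nothing about the element. Of 13 variant genes with such a model, 1 held it, H2AFX. The capitals below mark the loop.
HIST2H2AA4 (chr1:149851574-149851589, plus strand): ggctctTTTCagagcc
HIST1H2BC (chr6:26123472-26123487, minus strand): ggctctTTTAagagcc
HIST1H2AG (chr6:27133515-27133530, plus strand): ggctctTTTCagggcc
HIST1H3E (chr6:26225596-26225611, plus strand): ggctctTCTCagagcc
HIST1H4J (chr6:27824459-27824474, plus strand): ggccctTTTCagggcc
HIST2H4A (chr1:149833032-149833047, plus strand): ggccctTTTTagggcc
H2AFX (chr11:119094898-119094913, minus strand): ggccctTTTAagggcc

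The stem set the H4 genes apart but did not separate the H2A, H2B and H3 classes. All 8 H4 genes with the element carried the stem printed for HIST1H4J and HIST2H4A. All 11 H2B and all 6 H3 genes carried the stem printed for HIST2H2AA4, as did 6 of 7 H2A genes. The exception was HIST1H2AG, whose 3′ arm is that of the H4 genes. H2AFX, the variant that is phosphorylated at DNA breaks, had the H4 stem with a loop ending in A.

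Histone mRNAs were abundant in these libraries. The members held 1.73% of all counts for NC, 1.63% for GAS5 and 1.69% for siYAP. Replication-dependent genes alone held 1.45%, 1.36% and 1.43% across NC, GAS5 and siYAP. In NC, 44 of 85 members had an FPKM of at least 100 and 19 had at least 500. The load was uneven, as 6 genes carried 40.9% of all member counts. At the other end, 27 members stayed under a mean of 50 counts over the 3 groups, 17 had no more than 3 counts in any group, and 9 of these were listed at 0 in every group.

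**Figure D1:**
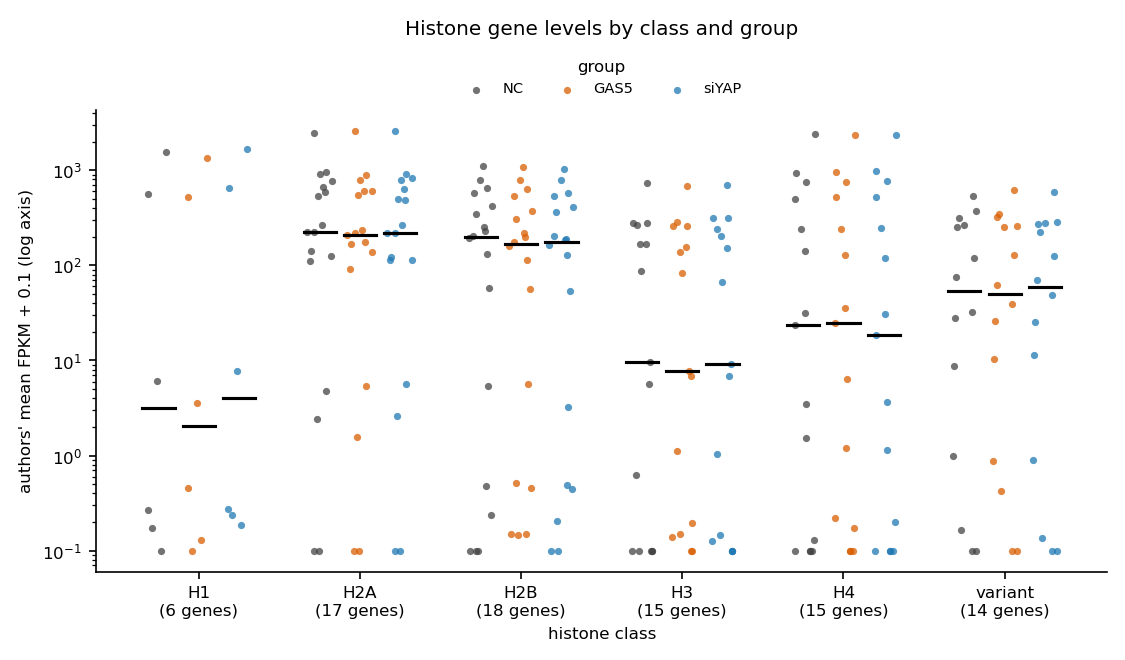
The authors' mean FPKM plus 0.1 (log axis) of all 85 histone genes, by class, with 1 point per gene and group (NC, GAS5, siYAP) and a bar at the median of the class. Within a class, genes spread over several orders of magnitude, and the 3 groups lie side by side, for example at medians of 226, 208 and 219 FPKM for H2A.

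Values given as a run of 3 numbers are in the order NC, GAS5 and siYAP. Levels below are FPKM, which are per length and can be compared between genes. They divide by the annotated length, and a model that stops at the coding end is shorter than the mRNA. In 15 of the 58 members with a mean of at least 50 counts, under 50% of 50-base windows occur in no other gene, so their ranks depend on how shared reads were divided. They include HIST2H2AA4 (2.91% unique), HIST1H2AJ (16.3%), HIST1H4J (18.8%), and HIST2H4A, HIST2H3A and HIST2H3C (0%). HIST2H2AA4 was the highest H2A gene, at 2467 FPKM for NC, 2619 for GAS5 and 2620 for siYAP. HIST1H2AJ stood at 954, 886 and 910, and HIST1H2AG at 904, 798 and 791. HIST2H2AA4 ranked 17th among all genes of the table by NC FPKM. Among H2B genes, HIST1H2BC led with 1117, 1094 and 1021 FPKM across NC, GAS5 and siYAP. It was followed by HIST1H2BD at 797, 781 and 788 and by HIST1H2BO at 655, 640 and 581. The H2A and H2B classes thus had several genes at a like level, with class medians of 226 and 198 FPKM in NC.

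HIST2H4A was the highest H4 gene, at 2392 FPKM for NC, 2369 for GAS5 and 2335 for siYAP. HIST1H4J stood at 929, 968 and 992, and HIST1H4C at 753, 753 and 766. HIST1H3B led the H3 genes with 740, 680 and 696 FPKM across NC, GAS5 and siYAP. HIST2H3A and HIST2H3C had the same values, 279, 261 and 314, in the files. The H3 class as a whole summed to 2008 FPKM in NC against 5024 for H4, 4994 for H2B and 7990 for H2A. Nucleosomes hold these proteins in equal numbers. Summed counts, which are not divided by length, were 42311 for H3, 67904 for H4, 115003 for H2B and 130984 for H2A in NC. The share of annotated length in the unequal FPKM sums was not tested.

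Among the replication-dependent linker histone genes, a pair was abundant and the other somatic genes were close to 0. The linker variants H1F0 and H1FX, described with the variants below, had 371 and 31.9 FPKM in NC. HIST1H1C, which encodes H1.2, had 1566 FPKM for NC, 1348 for GAS5 and 1682 for siYAP. HIST1H1E, which encodes H1.4, had 558, 523 and 655. HIST1H1A (H1.1) had 3, 6 and 3 counts, HIST1H1B (H1.5) had 1.5, 0 and 2.5, and HIST1H1D (H1.3) had 0, 0.5 and 1.5 counts. These 3 genes share no 50-base window with any other annotated gene. The testis gene HIST1H1T was listed at 118, 65.5 and 147 counts across NC, GAS5 and siYAP. The other testis histones were lower, with HIST1H2AA at 0 throughout, HIST1H2BA at 0, 5.5 and 1.5 counts, and HIST3H3 at 7, 12.5 and 12.

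Genes with few or no counts in their listed transcripts stood next to one another on chromosome 6. The HIST1 genes, 55 members on that chromosome, held 47.9% of all member counts in NC, and the 16 members on chromosome 1 held 37.5%. In the order of start sites on chromosome 6, 7 neighbours from HIST1H1D to HIST1H2BI (chr6:26234268-26273356, GRCh38) had no more than 3 counts in any group. They were HIST1H1D, HIST1H4F, HIST1H4G, HIST1H3F, HIST1H2BH, HIST1H3G and HIST1H2BI, and they hold genes of the H1, H2B, H3 and H4 classes. The genes on either side were HIST1H3E, with 220 counts in NC, and HIST1H4H, with 1858. A run of 4 neighbours, HIST1H2AL, HIST1H1B, HIST1H3I and HIST1H4L (chr6:27865355-27873510), was as low, between HIST1H2AK at 1363 counts and HIST1H3J at 990. With both strands searched, all 50-base windows of HIST1H2AK occur in HIST1H2BN. The use of strand in counting is not given, so the level of HIST1H2AK is uncertain. In all 11 genes of both runs at least 95% of 50-base windows were found in no other gene. HIST1H4K, also at 0, differs in this respect, since all of its windows occur in HIST1H4J. The runs were picked out after the values were seen.

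**Figure D2:**
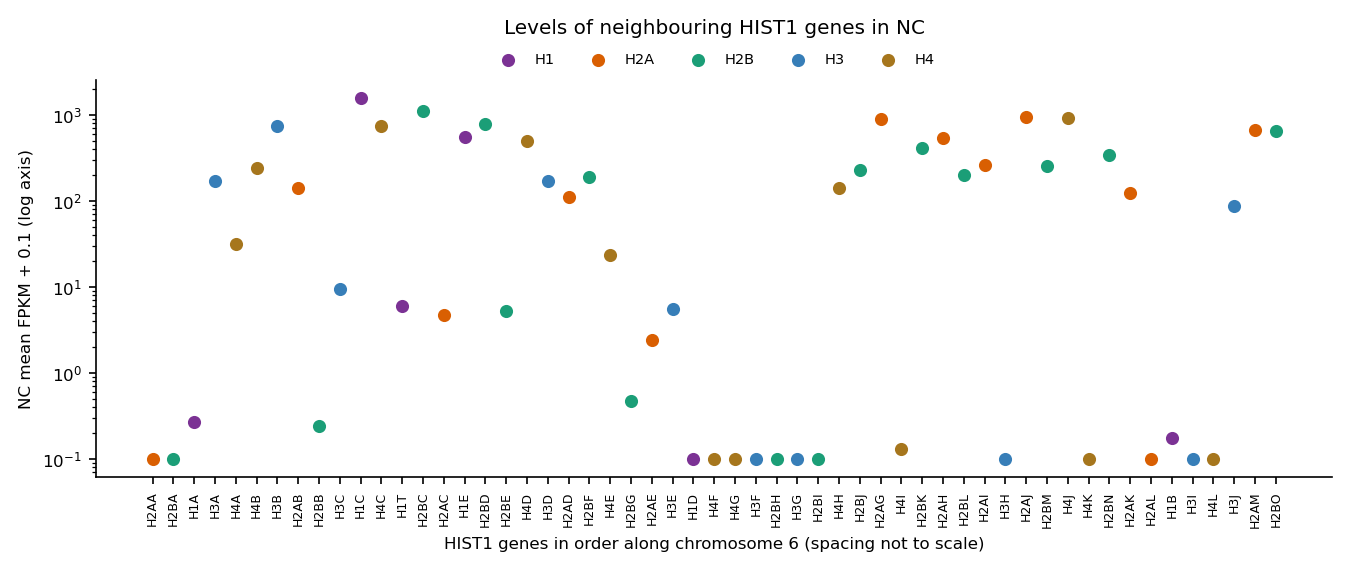
NC mean FPKM plus 0.1 (log axis) of the 55 HIST1 genes in their order along chromosome 6, coloured by class, with even spacing in place of distance. The stretches of 7 and of 4 genes at the bottom of the plot lie between genes with 220 to 1858 counts.

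Many H2A and H2B genes lie head to head and share the DNA between their starts. There were 11 such pairs with annotated starts 234 to 331 bases apart, and both partners passed a mean of 50 counts in 9. Partners mostly stood within an order of magnitude of each other. HIST1H2AM and HIST1H2BO had 667 and 655 FPKM in NC, and HIST1H2AI and HIST1H2BL had 263 and 203. Only 13.7% of the 50-base windows of HIST1H2AM and 37.7% of those of HIST1H2AI occur in no other gene. In other pairs the share was 2.03% for HIST1H2AD, 16.3% for HIST1H2AJ and 25.9% for HIST1H2BK. The levels of these genes depend on how shared reads were divided. The H2A gene had the higher FPKM in 7 of the 9 pairs, a measure that depends on annotated lengths. By NC counts the order was the reverse in HIST1H2AH and HIST1H2BK and in HIST1H2AM and HIST1H2BO, and the same in the other pairs. HIST1H2AC and HIST1H2BC were far apart, at 4.70 and 1117 FPKM in NC, 5.30 and 1094 in GAS5, and 5.58 and 1021 in siYAP. Unlike forms are compared here. HIST1H2AC was listed only with 2-exon transcripts, of 1654 and 1462 bases, while nearly all HIST1H2BC counts lay in a single-exon transcript of 571 bases. HIST1H2AE and HIST1H2BG were both low, with 32.5 and 15.5 counts in NC. Both partners had like fold changes in most pairs: their log2 fold changes differed by a median of 0.10 in GAS5 and 0.12 in siYAP. The 58 members with a mean of at least 50 counts also lay close together. Their quartiles were -0.15 and 0.11 in GAS5 and -0.13 and 0.11 in siYAP, and pairs were not compared with unpaired genes. The widest differences were 0.21 for HIST1H2AC and HIST1H2BC in GAS5, and in siYAP 0.38 in that pair and in HIST1H2AJ and HIST1H2BM.

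**Figure D3:**
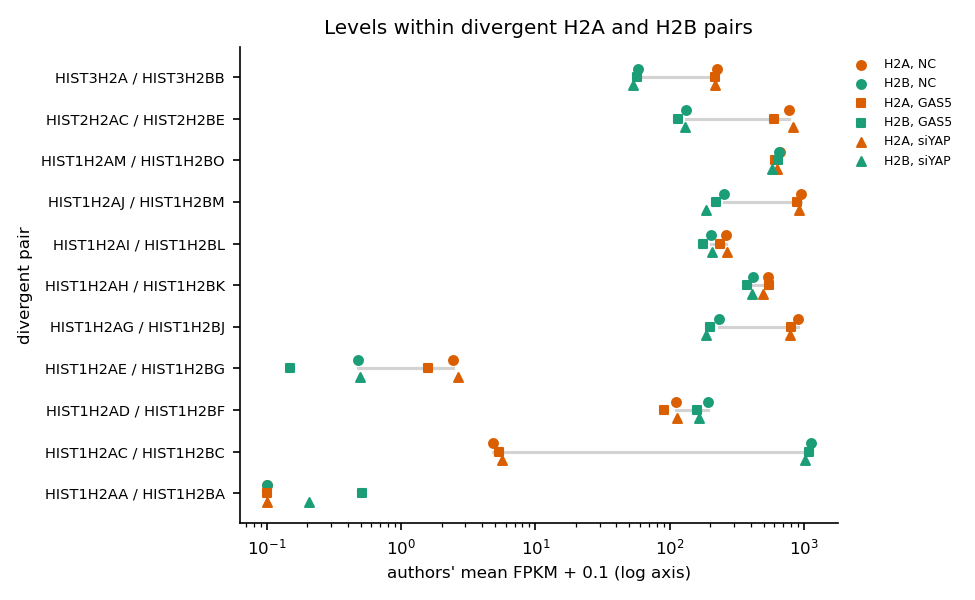
The authors' mean FPKM plus 0.1 (log axis) of both partners of the 11 divergent pairs, with H2A and H2B in 2 colours, a symbol per group and a grey line joining the NC values. HIST1H2AC, listed only with 2-exon transcripts, and HIST1H2BC lie furthest apart, at 4.70 and 1117 FPKM in NC.

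Promoters are shown because genes with like promoter letters had very unlike levels. RefSeq promoters (GRCh38.p14, 250 bases before to 50 bases after the start) were matched for 78 of the 85 members. The letters searched on both strands were the octamer ATTTGCAT, the box CCAAT, the box TATAAA and the H1 box AAACACA, and none of the 4 overlaps another in the printed windows. Capitals below mark every match.
HIST1H1C (chr6:26056421-26056720, minus strand): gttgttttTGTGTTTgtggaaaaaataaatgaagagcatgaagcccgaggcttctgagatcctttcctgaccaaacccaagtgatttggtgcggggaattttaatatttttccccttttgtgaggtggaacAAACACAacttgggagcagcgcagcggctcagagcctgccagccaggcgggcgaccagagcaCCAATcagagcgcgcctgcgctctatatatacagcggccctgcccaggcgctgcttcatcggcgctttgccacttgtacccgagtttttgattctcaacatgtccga
HIST1H1D (chr6:26234938-26235237, minus strand): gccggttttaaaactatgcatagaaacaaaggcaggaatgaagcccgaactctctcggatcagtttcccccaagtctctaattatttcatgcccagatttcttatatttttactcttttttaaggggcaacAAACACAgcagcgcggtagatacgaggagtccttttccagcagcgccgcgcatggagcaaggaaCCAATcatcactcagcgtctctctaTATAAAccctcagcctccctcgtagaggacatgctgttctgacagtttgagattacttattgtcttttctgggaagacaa
HIST1H2BC (chr6:26123877-26124176, minus strand): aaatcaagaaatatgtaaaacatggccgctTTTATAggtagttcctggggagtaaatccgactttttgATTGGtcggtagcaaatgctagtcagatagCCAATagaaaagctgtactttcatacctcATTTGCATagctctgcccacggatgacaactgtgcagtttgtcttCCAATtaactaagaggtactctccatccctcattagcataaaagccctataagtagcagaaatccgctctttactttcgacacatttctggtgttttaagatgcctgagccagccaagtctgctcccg
HIST2H4A (chr1:149832407-149832706, plus strand): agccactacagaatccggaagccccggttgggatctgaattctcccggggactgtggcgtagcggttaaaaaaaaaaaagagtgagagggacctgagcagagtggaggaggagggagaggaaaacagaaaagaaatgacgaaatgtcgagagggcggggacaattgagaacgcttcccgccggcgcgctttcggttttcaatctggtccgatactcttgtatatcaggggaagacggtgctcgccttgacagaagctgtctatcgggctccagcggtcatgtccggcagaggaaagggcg
H2AFZ (chr4:99950226-99950525, minus strand): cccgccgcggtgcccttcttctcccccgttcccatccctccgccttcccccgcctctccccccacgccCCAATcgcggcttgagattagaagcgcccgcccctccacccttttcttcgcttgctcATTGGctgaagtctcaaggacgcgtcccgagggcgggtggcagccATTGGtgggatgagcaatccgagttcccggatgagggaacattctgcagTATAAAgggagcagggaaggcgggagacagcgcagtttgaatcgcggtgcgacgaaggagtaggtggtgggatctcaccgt

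The octamer and the H1 box differed between classes. The octamer was in 14 of 18 H2B and 11 of 16 H2A promoters and in no H1 or H4 promoter, against 1.8% of all 27305 promoters. The single match among 13 H3 promoters was in the window of HIST1H3D, which is the same window as that of HIST1H2AD and lies 2043 bases from the start of the listed HIST1H3D transcript. In 75 of the 78 windows the RefSeq start was within 150 bases of a listed start, the exceptions being HIST1H3D, HIST1H3G and HIST1H4I. Over these 75 the octamer was in 0 of 11 H3 promoters. Partners of a divergent pair share much of this window, so their matches are often the same bases. The H1 box was in all 6 H1 promoters, 1 H2A and 2 H3 promoters, against 5.76% of all. CCAAT was in every H1, H2A, H2B and H3 promoter in the table and in 3 of 13 H4 promoters, against 35.7% of all. TATAAA was spread over the classes, in 3 of 6 H1, 12 of 16 H2A, 12 of 18 H2B, 10 of 13 H3, 7 of 13 H4 and 4 of 12 variant promoters, against 12% of all. HIST1H1C and HIST1H1D, at 1566 and 0 FPKM in NC, both hold the H1 box and CCAAT. HIST2H4A, the highest H4 gene, held none of the 4 motifs in this window.

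For the comparisons, log2 fold changes were taken from counts summed by gene and scaled between the groups, over members with a mean of at least 50 counts. Of the 85 members, 58 met this minimum, 48 of them replication-dependent and 10 variants.

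In the GAS5 group the histone genes stood close to their NC levels. The median log2 fold change of the 58 members was -0.06, with 26 above and 32 below 0, beside a median of 0.00 over all 11907 genes. A log2 fold change of 0.5 (1.41-fold) or more was seen in 1 member upward and 2 downward, where 3.73% of all genes were past this limit upward and 3.34% downward. At 1.0 (2-fold) the members held 1 lower and 0 higher, where the shares of all genes were 0.269% and 0.806%. At 0.5 the members' own shares were 1.72% upward and 3.45% downward, at or under those of all genes to within 1 member. All replication-dependent counts summed gave a log2 fold change of -0.07 (95% Wilson interval -0.08 to -0.07).

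The 3 members past the limit in GAS5 were HIST2H2AA3, HIST1H1T and HIST2H4B. HIST2H2AA3 had 8935 counts for NC, 2482 for GAS5 and 7212 for siYAP, a log2 fold change in GAS5 of -1.73 (-1.78 to -1.68). Its neighbour and near-identical copy HIST2H2AA4 had 38569, 38534 and 39596 counts. No 50-base window of HIST2H2AA3 is its own, as all occur in HIST2H2AA4. The sum of both genes was 47505, 41017 and 46808 counts across NC, GAS5 and siYAP, at a log2 fold change of -0.09 (-0.11 to -0.08) in GAS5 and 0.06 (0.05 to 0.08) in siYAP. HIST2H2AA3 took 18.8% of the summed counts for NC, 6.05% for GAS5 and 15.4% for siYAP. HIST2H4B had 106, 184 and 108 counts across NC, GAS5 and siYAP, a log2 fold change of 0.90 (0.67 to 1.16) in GAS5. With its copy HIST2H4A it summed to 38791, 36204 and 36580 counts, a log2 fold change of 0.02 in GAS5 and 0.00 in siYAP. How reads of such copies were divided is not stated, so the level and fold change of a single copy are uncertain.

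HIST1H1T, the testis linker histone, was the third, at a log2 fold change of -0.72 (-1.04 to -0.42) in GAS5 from 118 counts in NC to 65.5. In siYAP it was on the other side of NC, at 0.40 (0.16 to 0.65). HIST1H1C and HIST1H1E, the other replication-dependent H1 genes over the minimum, were much more abundant and stood closer to NC. HIST1H1C had 27803 counts for NC, 22540 for GAS5 and 28953 for siYAP, at log2 fold changes of -0.19 and 0.14. HIST1H1E had 11648, 10274 and 13239 counts, at -0.06 and 0.27. All 3 replication-dependent H1 genes that met the minimum were below NC in GAS5 and above it in siYAP, on every scaling tried. The summed counts of the replication-dependent H1 genes gave log2 fold changes of -0.15 (-0.16 to -0.13) and 0.18 (0.17 to 0.20). The linker variants differed, as H1F0 was below NC in both groups and H1FX above NC in both.

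The remaining large differences in GAS5 were in genes at both ends of the range of levels. HIST2H2AC, an H2A gene, had 8286, 6088 and 8671 counts across NC, GAS5 and siYAP, a log2 fold change of -0.33 in GAS5 (-0.36 to -0.29). Of its 50-base windows 30.5% also occur in HIST2H2AA3, and the interval does not cover how shared reads were divided. HIST1H3C was sparse, with 107.5, 72.5 and 99.5 counts, at -0.44 (-0.75 to -0.15). HIST1H2BE had 91, 115 and 68.5 counts, at 0.45 (0.18 to 0.74) in GAS5 and -0.32 (-0.64 to -0.01) in siYAP. As a ratio of FPKM the same gene was at 0.09 in GAS5 and -0.73 in siYAP. HIST1H3E had 220, 257 and 215 counts, at 0.34 (0.16 to 0.53) in GAS5. Of the H4 genes, 8 of 9 lay above 0 in GAS5, but with a median of only 0.07, and they ran from -0.16 to 0.90 (HIST2H4B). HIST2H4A was at 0.01, a value that changes sign with the scaling.

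In the siYAP group the replication-dependent genes also stood close to their NC levels. The median of the 58 members was 0.00, with 30 above and 28 below 0, and over all genes it was -0.01. No member was at -0.5 or lower, where 6.56% of all genes were, and 1 was at 0.5 or higher, where 4.85% were. No member passed 1.0 in either direction, where 0.512% of all genes were lower and 0.328% higher. The summed replication-dependent counts gave a log2 fold change of 0.02 (0.01 to 0.02). By class, the summed counts were at 0.18 for H1, 0.11 for H3, 0.03 for H4, -0.01 for H2A and -0.06 for H2B. The 9 H3 genes over the minimum had a median of -0.03, with 4 above and 5 below 0. HIST2H3A and HIST2H3C, which have no 50-base window of their own, together held 27878 of the 43176 H3 counts in siYAP, at 0.21.

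The single member past the limit was H1FX, a linker variant. It had 1325 counts for NC, 1531 for GAS5 and 1971 for siYAP, at log2 fold changes of 0.33 (0.25 to 0.40) in GAS5 and 0.66 (0.59 to 0.73) in siYAP. H2AFZ, which encodes H2A.Z, a variant found at promoters, was the lowest in siYAP. Its counts were 8618, 8762 and 5841, at 0.14 (0.11 to 0.17) in GAS5 and -0.48 (-0.51 to -0.44) in siYAP. The closely related H2AFV had 2918, 2235 and 2497 counts, at -0.27 and -0.14. H1F0, the linker histone of resting and differentiated cells, was below NC in both groups, with 24100, 16020 and 18162 counts. Its log2 fold changes were -0.47 (-0.49 to -0.45) in GAS5 and -0.32 (-0.34 to -0.30) in siYAP.

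Among the other variants, H2AFX had 11152, 13395 and 11542 counts across NC, GAS5 and siYAP, at log2 fold changes of 0.38 (0.36 to 0.41) and 0.13 (0.11 to 0.16). Its Ensembl transcript was at 0.30 in GAS5 and 0.05 in siYAP, and its transcript assembled from reads at 0.69 and 0.45. H3F3A and H3F3B, which encode the same H3.3 protein, were at -0.05 and 0.21 in GAS5 and at 0.08 and 0.14 in siYAP. H3F3B had 13230, 14065 and 13716 counts and H3F3A had 6457, 5735 and 6439. The macroH2A genes H2AFY, with 5801, 5855 and 5800 counts, and H2AFY2, with 1540, 1336 and 1347, stayed within 0.13 of NC in both groups. H2AFJ was sparse, at 155, 170 and 193.5 counts, with log2 fold changes of 0.25 (0.03 to 0.47) and 0.40 (0.19 to 0.62). H2AFB1 and H3F3C were listed at 0 throughout.

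Besides H2AFZ and H1F0, the lowest members in siYAP were replication-dependent genes of H2B and H3. HIST1H2BM had 2671 counts for NC, 2189 for GAS5 and 1898 for siYAP, at a log2 fold change of -0.41 (-0.47 to -0.35) in siYAP. HIST1H3J had 990, 891 and 732 counts, at -0.35 (-0.45 to -0.25). On the upper side were HIST1H3D, with 1942, 1467 and 2246 counts and a log2 fold change of 0.29 (0.23 to 0.36), and HIST1H2AC, with 195, 208 and 225 counts at 0.29 (0.10 to 0.49). HIST1H3D shares all of its 50-base windows with another annotated gene, so its level is uncertain.

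**Figure D4:**
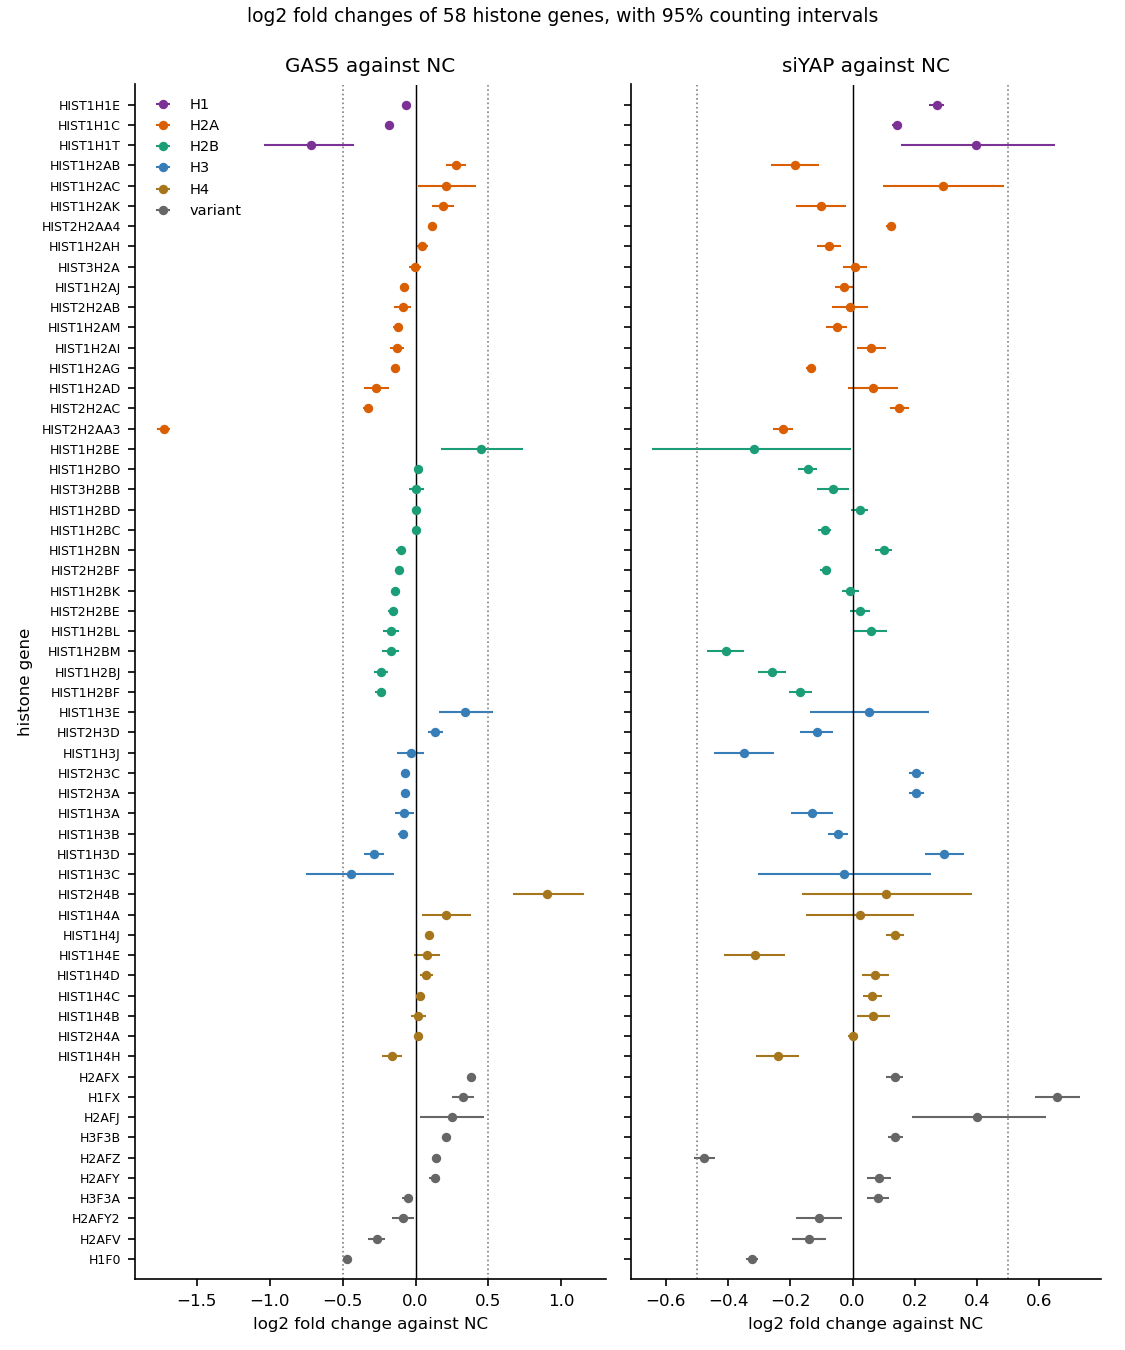
log2 fold changes against NC of the 58 members with a mean of at least 50 counts, by class, with 95% Wilson intervals for counting error and dotted lines at 0.5 in both directions. HIST2H2AA3 stands alone at -1.73 in GAS5, and in siYAP H1FX at 0.66 is the only point past a dotted line.

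Some replication-dependent genes were also listed with spliced forms. In 8 genes both single-exon and multi-exon transcripts were listed, and the multi-exon ones held 13.6%, 13.6% and 13.8% of their counts across NC, GAS5 and siYAP. The share ran from 0.0478% in HIST1H2BC to 82.2% in HIST1H3E in NC. For HIST1H2BJ the multi-exon form held most counts, 3335 of them in NC against 1100 for the single-exon form. The multi-exon form of HIST1H2BD had 73.9 counts for NC, 144 for GAS5 and 114 for siYAP, at log2 fold changes of 1.06 (0.79 to 1.36) and 0.69 (0.41 to 1.01), while its single-exon form was at -0.01 and 0.02. Summed over the 8 genes, the multi-exon forms were at -0.07 in GAS5 and -0.04 in siYAP and the single-exon forms at -0.07 and -0.06. By gene, 5 of 8 multi-exon forms lay above 0 in either comparison and 3 below. The multi-exon forms of HIST1H2BC and HIST1H2BE were also higher in GAS5, with log2 fold changes of 1.12 (0.46 to 2.09) and 1.24 (0.83 to 1.82) from few counts. On the lower side were the multi-exon forms of HIST1H2BJ, at -0.31 in GAS5 and -0.26 in siYAP, of HIST1H4H, at -0.31 and -0.41, and of HIST1H2BN, at -0.22 in GAS5 and 0.05 in siYAP. Counts per form are the authors' estimates, and these genes were described after their values were seen.

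Genes that make, handle or order histones were described from 3 lists. Of 20 genes of histone mRNA 3′ end processing and decay, 19 met the minimum, with medians of 0.09 in GAS5 and -0.16 in siYAP. None passed 0.5 in GAS5 and 2 were at -0.5 or lower in siYAP, CASP8AP2 at -0.74 and NPAT at -0.51, which both act at histone gene clusters. With 6.56% of all genes that low, 2 of 19 is within 1 gene of the background. MIF4GD, a partner of the stem-loop binding protein in translation, was at 0.43 in siYAP, and SRRT, UPF1 and ZCCHC6 were the most extreme in GAS5 at 0.46, 0.36 and 0.34. SLBP, the stem-loop binding protein itself, named outside the rule, was at 0.19 in GAS5 and -0.33 in siYAP.

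All 26 genes of the chaperone and exchange list met the minimum, including CENPA, which is itself a histone gene. Their median was 0.08 in GAS5, with 1 at 0.5 or higher against 3.73% of all genes. In siYAP it was -0.24, with 20 below 0 and 5 at -0.5 or lower against 6.56% of all genes. The most extreme in siYAP were HJURP, the CENP-A chaperone, at -0.64, and CHAF1B and CHAF1A, subunits of the replication-coupled chaperone CAF-1, at -0.62 and -0.59. In GAS5 they were TONSL at 0.53, IPO4 at 0.36 and HAT1 at 0.34.

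The list of S phase entry and replication stood furthest from NC. Of 21 genes, 18 were above 0 in GAS5 with a median of 0.25, and 3 were at 0.5 or higher, CDC25A at 0.69, CCNE2 at 0.66 and MCM5 at 0.52, where 3.73% of all genes were that high. In siYAP 19 were below 0 with a median of -0.56. There 11 of 21 were at -0.5 or lower, against 6.56% of all genes and 0 of 48 replication-dependent histone genes. MCM6 and MCM4, subunits of the replicative helicase, were at -1.14 and -1.08. CDKN1A, the inhibitor p21, was the only gene of the list at 0.5 or higher, at 0.91. The difference between this list and the histone genes was not tested, and no library-level spread stands behind either. The list was also chosen with earlier results of these data known.

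**Figure D5:**
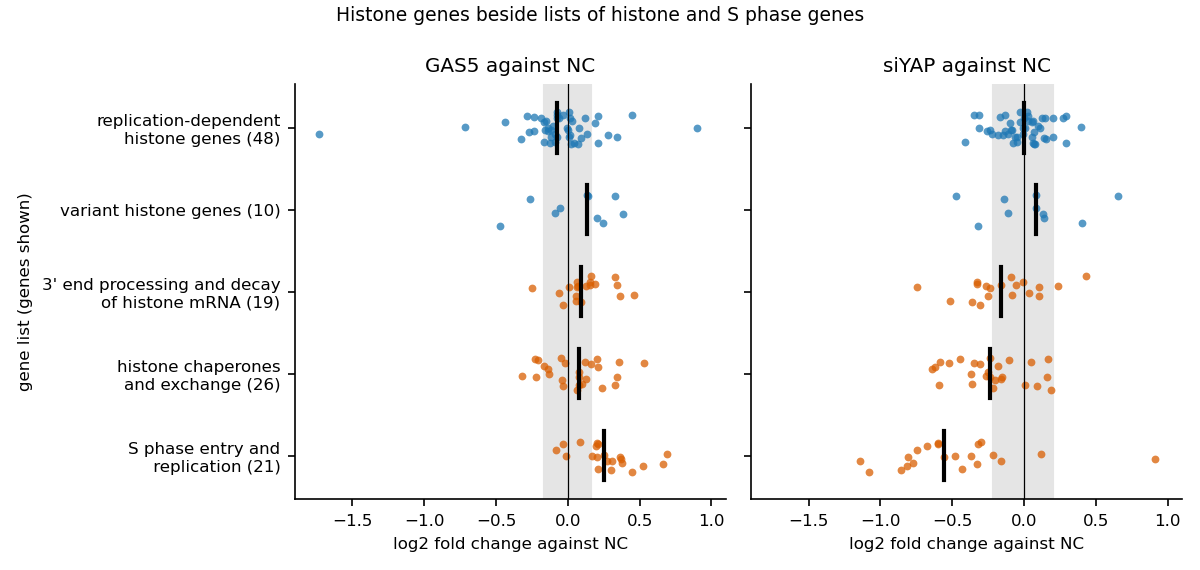
log2 fold changes against NC of histone genes (blue) and of the 3 gene lists (orange), 1 point per gene with a mean of at least 50 counts, a black bar at each median and a grey band between the quartiles of all genes. In siYAP the S phase genes centre at -0.56, while the replication-dependent histone genes centre at 0.00.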

How the data were processed

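Strand-marked, random-primed total RNA libraries of HCT116 cells were sequenced on an Illumina instrument. The authors deposited, per transcript, expected counts and FPKM averaged over the 2 libraries of each group. TopHat2 2.1.1 is named in the submitters' processing notes. The counter, genome build, annotation and use of strand in counting are not given in the sources used here. The authors' fold change, P and FDR columns were not used. The number of columns of per-sample values left out was 0.

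Counts were summed by symbol, and 339 transcripts without a symbol were left out. Scaling used edgeR 4.0.16 (TMM on each pair of group means, prior count 2), with a minimum mean of 50 counts. The planned quasi-likelihood test needs libraries and was not possible. Intervals are 95% Wilson, conditional on counts behind 2 libraries, and fragments are not independent molecules. The steps were tested on simulated data. Sequences came from GENCODE 29 and RefSeq, with member symbols matched for all 85 genes. Every listed Ensembl transcript of a member is in GENCODE 29, so its coordinates are printed. Members and gene lists were chosen with earlier results of these data known. Genes named were the 3 highest by NC FPKM in each class, every variant over the minimum, the 5 highest and 5 lowest fold changes per comparison, the 3 most extreme genes per list, and testis histones. Python 3 scripts drew the figures.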

Additional observations from a re-analysis of the deposited data

How the results depend on the processing

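Only group means were analysed, so leaving out each replicate and the replicate block were not run. No paired analysis was possible because the files hold 1 mean per group. Under 10 alternatives the median of the members stayed between -0.08 and 0.00 in GAS5 and between -0.04 and 0.03 in siYAP. No member past 0.5 turned its direction. Without a filter the GAS5 median was 0.0032 with 5 members lower and 11 higher, and 7 were higher in siYAP. With near-identical copies summed, 1 was lower and 0 higher in GAS5. Over the 28 members with at least 95% unique windows, 1 was lower and 0 higher in GAS5, and in siYAP the median was -0.037 and 0 were higher. These last settings were chosen after seeing the data. The number at -0.5 or lower in siYAP was 1 with total counts (H2AFZ), 2 with FPKM ratios (H2AFZ and HIST1H2BE) and 1 with Ensembl transcripts (HIST3H2BB, whose counts lie mostly in a transcript assembled from reads). Members held 1.74% of NC counts of named genes, and 1.80% with Ensembl transcripts. Of 70 values of named members, 9 close to 0 change sign between settings: HIST2H4A and HIST1H2BD in both groups, HIST2H2AA4 (-0.09 to 0.12), HIST1H2BC and HIST1H2BO in GAS5, and HIST1H2AJ and HIST1H3C in siYAP. So do 5 of 12 class medians, those of H2A and variants in both groups and of H3 in siYAP, all within 0.14 of 0. The depth limits the sparse genes: 17 members lie at or under 3 counts in every group, and no single fold is printed for them.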
